A study of Arabidopsis thaliana with 6 samples.

Results

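In dark-grown Arabidopsis thaliana seedlings the transcription factor PIF1, of the basic helix-loop-helix family, accumulates and represses light responses, and light-activated phytochromes cause its degradation. Proteins of its family bind short E-box elements, among them the G-box, and many of their known sites lie in promoters close to genes. The consensus regions that lie far from any protein-coding gene were examined here. They numbered 447 of 4845 consensus regions, or 9.23%. A consensus region is a set of overlapping peaks (1 bp or more) from at least 2 of the 3 deposited peak lists, placed at the mean of its summits. It was called distal where that position was more than 2000 bp from every protein-coding nuclear gene in the gene table. The members were thus chosen by measured peak calls and by gene distances. Fold enrichments come from the same comparison as the calls, and are given as a description, with no test.

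The 3 PIF1 libraries came from whole transgenic seedlings that overexpressed PIF1 with a Myc epitope tag (P1M), and the 3 wild-type libraries from seedlings with no tag. Whole seedlings mix all cell types, which cannot be told apart here. All seedlings were 3 days old, had received white light for 3 h to induce germination, were then kept in darkness at 21 °C, and went through immunoprecipitation with the same anti-Myc antibody. The promoter of the transgene and the number of independent lines are not given in the sources used here. A library held the DNA of 4 immunoprecipitations, made from 2 biological replicates and pooled, and a peak list set the PIF1 library of its number against the wild-type one. PIF1 libraries held 5721184 to 14209334 tags after duplicates were limited, and wild-type libraries 6134032 to 17323572. Lists 1, 2 and 3 held 4578, 12776 and 7678 peaks. The deepest PIF1 library by this count, that of list 1, gave the shortest list. Before duplicates were limited it held the fewest tags, 16281353, against 19185319 and 17050217 in PIF1 libraries 2 and 3. Fold enrichment is the authors' value for a single peak, the ratio of PIF1 tags to the local wild-type background. It is compared between regions only within a list, or as a percentile of that list averaged over the lists that hold the region.

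The strongest distal region lay in the gap beside ATHB2 (HB-2 in the gene table), which encodes a class II homeodomain-leucine zipper (HD-ZIP II) protein and is known as a shade-induced gene. It covered chromosome 4, 9442992 to 9444693 (TAIR10), and was enriched 12.58-, 46.26- and 27.74-fold in lists 1, 2 and 3. Its peaks held 308, 693 and 224 tags, and their 3 summits lay within 11 bp of each other. The position was 5181 bp from ATHB2 and 6727 bp from AT4G16770. Within the same gap of 11907 bp stood 3 more distal regions, so that this gap held 4 distal regions and no region within 2000 bp of either gene.

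The other regions of the ATHB2 gap were weaker than the strongest one in every list. At chromosome 4, 9440513 to 9441157, 8319 bp from ATHB2, the fold enrichments were 6.57, 26.19 and 23.68. At 9441591 to 9442447, 7054 bp away, they were 7.12, 21.56 and 15.36. At 9445589 to 9446429, 3051 bp away, they were 8.34, 19.56 and 16.64. All 4 regions were held by all 3 lists, and they took ranks 1, 14, 15 and 16 among the 447 distal regions by mean percentile of fold enrichment. ATHB2 also had a consensus region inside the gene, at 9448952 to 9449631, with 6.52 and 3.7 in lists 2 and 3 and no peak in list 1. In both lists the region inside the gene was thus lower than each of the distal ones.

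**Figure D1:**
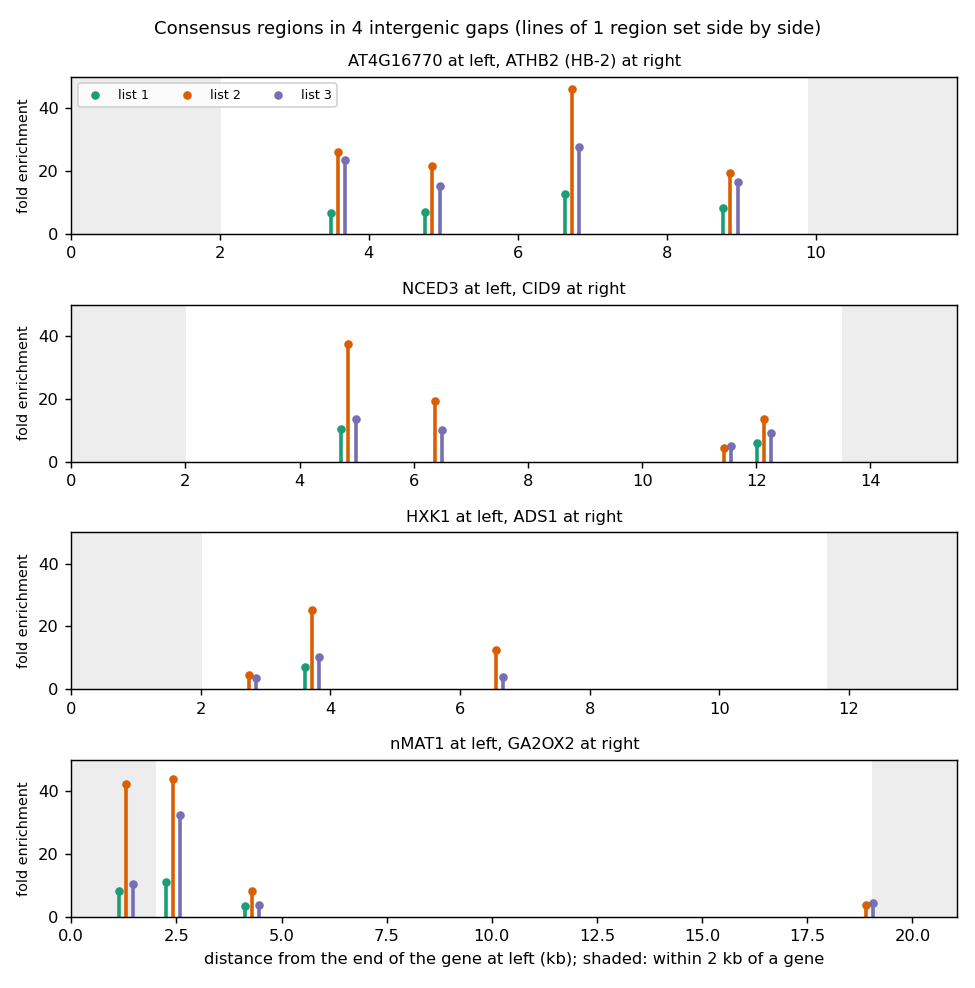
Consensus regions in 4 intergenic gaps, each drawn from the end of the gene at left (0 kb) to the start of the gene at right; vertical lines give the fold enrichment of each region in lists 1, 2 and 3, set side by side for legibility, and shading marks the 2 kb next to a gene. The ATHB2 gap held 4 distal regions of all 3 lists, with up to 46.26-fold enrichment in list 2, while the strongest regions of the gap between nMAT1 and GA2OX2 lay close to nMAT1.

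The region at rank 2 lay at chromosome 1, 10518415 to 10519250, between nMAT1, for a splicing factor of mitochondrial introns (2416 bp), and GA2OX2, for a gibberellin-inactivating oxidase (18656 bp). Lists 1, 2 and 3 gave fold enrichments of 11.12, 43.88 and 32.61. A consensus region nearer to nMAT1, 1302 bp away at 10517282 to 10518062, had 8.37, 42.23 and 10.45, so the distal region was the higher of the pair in every list. Rank 3, at chromosome 1, 22184389 to 22185144, had 10.53, 31.03 and 26.9, and lay 3017 bp from TPS10, of the trehalose phosphate synthase family, and 3273 bp from AT1G60160. Both sides of that region were thus about equally far.

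Rank 4 lay at chromosome 1, 29360651 to 29361902, between AT1G78070 (2184 bp) and RAP2.4 (2856 bp), which encodes a transcription factor of the AP2/ERF family. Its fold enrichments were 9.08, 33.17 and 24.59, and its position fell inside an annotated RNA gene of no named class, AT1G09965. Rank 6, at chromosome 5, 2612526 to 2613337, had 8.21, 35.89 and 30.83 and lay 2724 bp from BIM1, for a helix-loop-helix partner of the brassinosteroid regulator BES1. In both regions list 1 gave the lowest of the 3 values.

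Rank 5, at chromosome 3, 4723413 to 4724365, lay between AT3G14205 (2907 bp) and the glucosinolate gene ESM1 (5489 bp), with 10.37, 25.27 and 28.65. Rank 7, at chromosome 3, 9737213 to 9737894, lay between TIP2, for a tonoplast aquaporin (13646 bp), and AT3G26539 (6058 bp), with 11.33, 26.3 and 15.97. Rank 8, at chromosome 2, 11947144 to 11947860, had 8.99, 44.42 and 14.25 and lay 2381 bp from AT2G28060 and 4475 bp from MIR172a, a microRNA gene of the family that targets AP2-type factors. Its summits in the 3 lists lay within 3 bp.

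Rank 9 lay at chromosome 3, 4837565 to 4839369, 4856 bp from NCED3, which encodes an enzyme of abscisic acid synthesis, and 10668 bp from CID9. Its fold enrichments were 10.26, 37.49 and 13.45. The gap between NCED3 and CID9 held 3 more distal regions. That at 4839743 to 4840659 had 19.44 and 10.09 in lists 2 and 3, and was the strongest distal region held by 2 lists only. Those at 4845215 to 4845666 and 4845748 to 4846426 lay nearer to CID9 and had 4.33 and 4.88 in lists 2 and 3, and 6.06, 13.54 and 9.17 in lists 1, 2 and 3. No region of this gap lay within 2000 bp of NCED3 or CID9.

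Rank 10, at chromosome 3, 18821628 to 18822405, lay 4607 bp from DWF4, for a hydroxylase of brassinosteroid synthesis, and 4148 bp from U1-70K, with 8.83, 25.06 and 22.69. Rank 11, at chromosome 5, 26631109 to 26632759, lay 2378 bp from the homeodomain-leucine zipper gene HB53, with 9.42, 26.83 and 15.8. Rank 12, at chromosome 3, 22325079 to 22326624, lay between the HD-ZIP II gene HAT3 (3547 bp) and SHOT1 (2840 bp), inside the long non-coding RNA gene AT3G09365, with 8.36, 30.55 and 12.9. Rank 13, at chromosome 1, 22099266 to 22100356, lay 3372 bp from AT1G60010 and 13679 bp from NAT7, with 7.28, 30.94 and 13.87. The HD-ZIP genes ATHB2, HB53 and HAT3 flanked ranks 1, 11, 12, 14 and 15, a grouping made after the ranks were seen. Of these, ranks 1, 14 and 15 lay in the same gap, that of ATHB2. At ranks 12 and 14 the gene on the other side was nearer. Of all 27444 protein-coding genes, 260 (0.947%) flanked a distal region of all 3 lists. That share counts genes over all distal regions of 3 lists, so it is no background for the ranks named here. For the HD-ZIP family as a whole no such share was counted, so no enrichment of the family is claimed.

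Over the 15 strongest distal regions of all 3 lists, fold enrichment ran from 6.57 to 12.58 in list 1 (median 9.08), from 19.56 to 46.26 in list 2 (median 30.94) and from 12.9 to 32.61 in list 3 (median 22.69). List 1 was the lowest for each of the 15. Summits of the 3 lists differed by 3 to 52 bp, with a median of 24 bp. All 15 lay in gene-rich 1 Mb bins, those with 100 or more protein-coding genes.

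**Figure D2:**
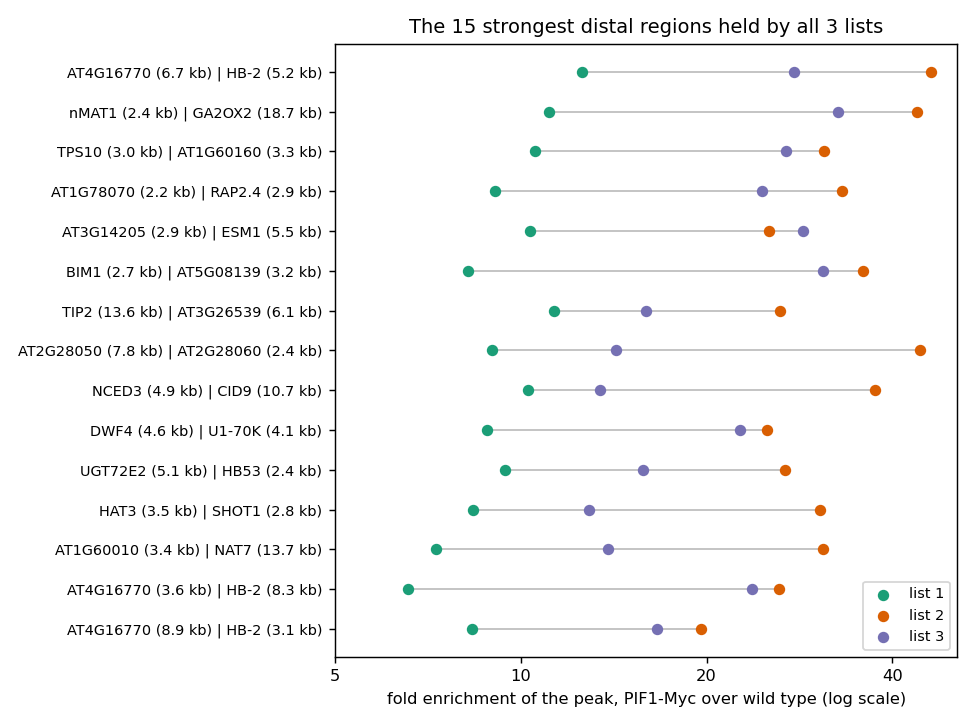
Fold enrichment of the 15 strongest distal regions held by all 3 lists, on a log axis, with 1 point per list; rows are ordered by mean percentile and named by the protein-coding genes on either side with their distances. List 1 values sit between 6.57 and 12.58 and are below those of lists 2 and 3 in every row.

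Of the distal regions held by 2 lists, the strongest after the one beside NCED3 lay at chromosome 3, 17395240 to 17395830, between PLC9 and AT3G47250 (16.57 and 11.16 in lists 2 and 3). The next lay at chromosome 3, 7215315 to 7215881, 2156 bp from AT3G20640 (17.95 and 6.89). A region at chromosome 1, 15880207 to 15880807, stood 10708 bp from AT1G42430 and 119296 bp from AT1G42190, in a gene-poor bin (16.67 and 6.88). Between EXPA4, for a cell wall-loosening expansin, and RTFL8, a region at chromosome 2, 16552487 to 16553870, had 10.7 and 9.25. Its summits in lists 2 and 3 lay 664 bp apart.

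Distances of the 447 regions to the nearest protein-coding gene ran from 2001 to 176669 bp, with a median of 2907 bp and quartiles of 2330 and 4187 bp. Just beyond the limit stood regions at 2001 bp from AT4G37235 (6.11 and 4.71 in lists 2 and 3), 2001 bp from HSP81-2 (4.25 and 5.55) and 2002 bp from AT4G29090 (7.87, 11.41 and 12.1 in lists 1, 2 and 3). Just within it stood regions at 1996 bp from AT1G62480 (8.71, 31.59 and 19.17), 1995 bp from MYB56 (2.77, 7.94 and 3.3) and 1993 bp from AT4G34770 (5.08 and 3.53 in lists 2 and 3). Within 100 bp of the limit lay 40 distal regions, and 40 consensus regions on its near side. The number of members therefore moves with the limit.

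Between 2000 and 5000 bp from a gene lay most members: 154 up to 2500 bp, 84 from there to 3000 bp and 138 from 3000 to 5000 bp. A further 39 lay between 5000 and 10000 bp, and 32 farther out. Of the 415 regions within 10000 bp of a gene, 143 (34.5%) were held by all 3 lists, against 2 of the 32 beyond it. The median of the mean percentile was 70.7, 68.1 and 72.6 in the 3 nearest bands, 54.2 between 5000 and 10000 bp, 35.3 between 10000 and 50000 bp and 37.5 beyond. Both values were thus lowest beyond 10000 bp. Of the 32 far regions, 25 lay in gene-poor bins, against 36 of the 415 nearer ones.

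**Figure D3:**
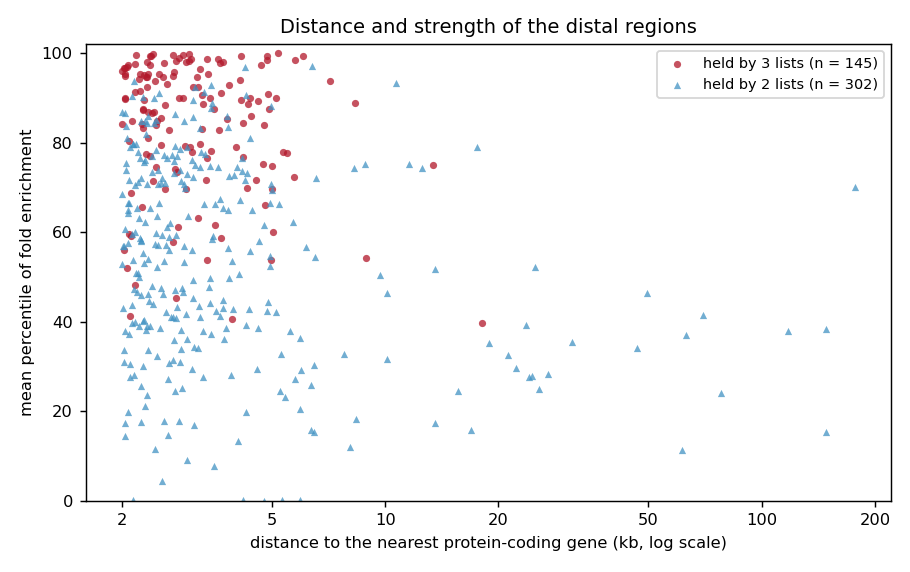
Each point is 1 of the 447 distal regions, by its distance to the nearest protein-coding gene (kb, log axis) and its mean percentile of fold enrichment; circles are regions of 3 lists and triangles of 2 lists. Of the 145 regions of 3 lists, 143 lie below 10 kb, most of them in the upper part of the plot.

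Each of the 5 farthest regions was held by 2 lists, with mean percentiles of 70.0 for the farthest and 15.4 to 38.3 for the others. That farthest out, at chromosome 3, 13706583 to 13707042, lay 176669 bp from AT3G32980, and list 1 gave 3.97 and list 3 gave 4.03. On chromosome 5, the regions at 11784462 to 11785321 and 11753762 to 11755074 lay 148268 and 117442 bp from AT5G30520, with 2.96 and 3.92 in lists 1 and 2 for the first, and 4.68 and 3.62 in lists 2 and 3 for the other. At chromosome 3, 13871665 to 13872818, a region 148219 bp from AT3G33187 had 2.35 and 3.27 in lists 1 and 2, and one at chromosome 5, 12355904 to 12356757, 78206 bp from AT5G32619, had 2.45 and 3.88. Annotated pseudogenes lay within 2000 bp of 4 of these 5 positions.

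By location on the chromosomes, 61 of the 447 distal regions (13.6%, 95% Wilson interval 10.8 to 17.1) lay in the 15 gene-poor bins of 121, against 68 of 4398 other consensus regions (1.55%, 1.22 to 1.96). Gene-poor bins are by definition rich in positions far from genes: they held 11.6 Mb of the distal territory, against 9.84 Mb in gene-rich bins. In gene-poor bins 6 of 61 distal regions (9.84%, 4.59 to 19.8) were held by all 3 lists, and in gene-rich bins 139 of 386 (36.0%, 31.4 to 40.9). Median fold enrichments in gene-poor bins were 2.48, 4.68 and 3.62 in lists 1, 2 and 3, and in gene-rich bins 3.90, 7.63 and 4.70. The strongest distal region of a gene-poor bin took rank 52. It lay at chromosome 5, 10127931 to 10128631, between AT5G28090 and AT5G28150, with 6.65, 24.86 and 5.86. Without replicate 1 the share of distal regions in gene-poor bins was 7.42%.

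Per Mb of territory, with a region placed by its position, gene-rich bins held 39.2 consensus regions where the nearest gene was more than 2000 bp away, 84.4 up to 2000 bp outside genes and 26.9 inside them. The distal density there was therefore below that of the flanks of genes and above that of gene bodies. Counting only what all 3 lists held, the densities were 14.1, 26.8 and 6.32 per Mb in the same order. Gene-poor bins held 5.24, 17.1 and 24.8 consensus regions per Mb. The distal density of gene-rich bins was 34.3, 15.5 and 18.2 per Mb without replicates 1, 2 and 3, since fewer regions were then held by 2 lists.

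The single lists differed in this order. In list 2, gene-rich bins held 101 peaks per Mb of distal territory, 193 per Mb up to 2000 bp outside genes and 83.9 inside them. In list 3 the densities were 65.4, 110 and 50.9 per Mb. In list 1 they were 43.7, 41.0 and 38.3 per Mb, so the flanks of genes lay below the distal territory and above gene bodies there. Distal peaks made up 16.2%, 9.90% and 11.3% of lists 1, 2 and 3 (12.5% ± 3.3, SD, n = 3). Of those distal peaks, 31.4%, 35.2% and 47.0% overlapped a peak of another list (37.9% ± 8.09), against 49.8%, 38.6% and 59.6% of the other peaks (49.3% ± 10.5). The share was lower for distal peaks in each of the 3 lists.

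**Figure D4:**
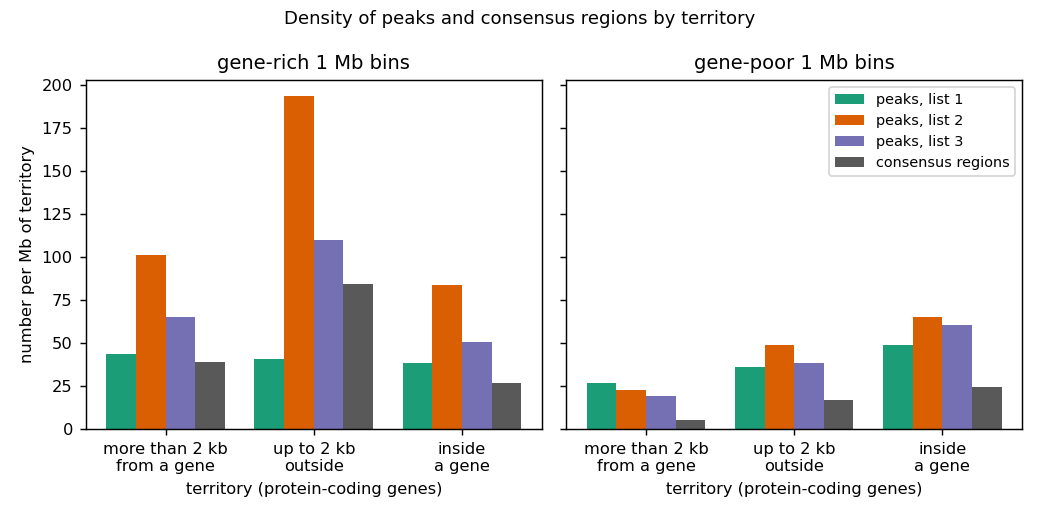
Peaks of lists 1, 2 and 3 and consensus regions per Mb of territory, by distance to protein-coding genes, in gene-rich (left) and gene-poor (right) 1 Mb bins; bars start at 0. Lists 2 and 3 reach 193 and 110 peaks per Mb up to 2 kb outside genes in gene-rich bins. List 1 stays between 38.3 and 43.7 in the 3 territories of gene-rich bins, and between 26.7 and 48.9 in those of gene-poor bins.

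Of the distal regions, 145 (32.4%, 95% Wilson interval 28.3 to 36.9) were held by all 3 lists, as were 1245 of 4398 other consensus regions (28.3%, 27.0 to 29.7). Of those others, the share was 35.0% (31.3 to 39.0) at 1 to 2 kb outside genes, 30.7% (28.7 to 32.7) up to 1 kb outside and 23.2% (21.3 to 25.3) inside genes. The distal share thus lay between the shares of the classes outside genes. The 302 held by 2 lists were found in lists 2 and 3 for 219, in lists 1 and 2 for 60 and in lists 1 and 3 for 23. Among the 1390 consensus regions that all 3 lists held, 10.4% were distal, close to the 9.23% of consensus regions as a whole. Without replicates 1, 2 and 3 there were 364, 172 and 205 distal regions, because both lists left must then hold a region. The number fell least without replicate 1, since most regions of 2 lists were held by lists 2 and 3.

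In fold enrichment, distal regions lay above regions inside genes and below those 1 to 2 kb outside genes, which are the class nearest to them in place. Median fold enrichments of distal regions were 3.57, 7.23 and 4.54 in lists 1, 2 and 3, against 3.39, 7.12 and 4.37 for other consensus regions as a whole. They were 4.18, 8.27 and 4.88 for the 588 regions 1 to 2 kb outside genes, 3.73, 7.56 and 4.54 for the 2078 up to 1 kb outside, and 2.86, 6.32 and 4.01 for the 1732 inside. The median percentile within a list differed by 3.40, 0.847 and 4.07 points (distal minus other; mean 2.77 ± 1.70, SD, n = 3). The median of the percentile averaged over lists was 66.6 for distal and 63.6 for other regions, a difference of 3.02. By class it was 73.7 at 1 to 2 kb outside genes, 68.1 up to 1 kb outside and 55.4 inside, so the distal median was above the others as a whole because regions inside genes are among them. The difference was 7.96 with a limit of 1500 bp and 5.11 for regions of all 3 lists. It was 5.04 without the ribosomal RNA gap of chromosome 3, and 5.52, 6.11 and 5.80 without replicates 1, 2 and 3. At 5-fold or more stood 22.8%, 75.2% and 41.3% of distal regions in lists 1, 2 and 3, against 16.2%, 77.7% and 36.0% of others, so the share was lower for distal regions in list 2. At 10-fold or more stood 6 of 228 distal regions of list 1 (2.63%), against 17 of 1881 others (0.904%). In list 2 these were 33.0% of distal regions and 27.7% of others, and in list 3 they were 9.82% and 6.30%. Of the 100 strongest consensus regions by mean percentile, 21 were distal, and of the 1000 strongest, 107 were. No test was made of these differences, since fold enrichment came from the comparison that chose the regions.

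The median length of distal regions was 724 bp, against 899 bp for other consensus regions and 758 bp for those 1 to 2 kb outside genes. Their median tag counts were 149, 109 and 58 in lists 1, 2 and 3, against 189, 138 and 79 for others and 158, 133 and 66 at 1 to 2 kb outside genes. Length, and tags in lists 1 and 3, were thus closest to those of the nearest class. In list 2 the median tag count of regions inside genes, 120, was closer. Summits of the lists lay a median of 54 bp apart in distal regions and 52 bp in others. The authors' false discovery rate was 5% or less for 0, 116 and 1 distal regions in lists 1, 2 and 3, and for 0, 1129 and 4 others. In list 2 these were 27.4% of distal regions and 26.5% of others, about equal shares.

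Apart from chromosome ends, where 1 stood, distal regions can exist only where 2 protein-coding genes lie more than 4000 bp apart. There were 2986 such gaps, and 363 of them (12.2%) held a distal region. Of gaps of 4000 to 6000 bp, 5.77% held one (95% Wilson interval 4.66 to 7.12), of those of 6000 to 8000 bp 14.2% (11.7 to 17.2), and of those of 8000 to 12000 bp 23% (19.4 to 27.0). Of gaps of 12000 to 20000 bp 18.0% did (13.8 to 23.2), and of wider ones 16.1% (12.2 to 20.9). The share was thus highest at 8000 to 12000 bp. Of the 274 gaps over 20000 bp, 186 lie in gene-poor bins, where 17.2% (12.5 to 23.3) held a distal region, against 10.7%, 8.89%, 0% and 1.75% of the narrower gaps there, from wide to narrow. In gene-rich bins the share was 13.6% (7.98 to 22.3) over 20000 bp and 24.5% (20.7 to 28.9) at 8000 to 12000 bp. The gaps of distal regions had a median width of 8948 bp. In 41.0% of cases the same gap also held a consensus region within 2000 bp of a gene.

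Most occupied gaps held a single distal region (304 gaps), while 41 held 2, 14 held 3 and 4 held 4 or more. Beside ATHB2 and NCED3, a gap with 4 distal regions stood between AT5G19090 and AT5G19100, with up to 16.49-fold enrichment in list 2. Gaps with 3 distal regions included that between HXK1, for the glucose-sensing hexokinase, and ADS1, where the strongest region had 7.22, 25.24 and 10.26. In the gap between ARF6, an auxin response factor gene, and AT1G30350, the strongest of the 3 distal regions had 3.6, 14.45 and 6.63. Between the growth-regulator genes GRF2 and ANT, the 3 distal regions had 6.84, 9.43 and 7.58 in list 2, and 3.46, 4.88 and 4.37 in list 3. A gap beside the gene with the symbol FAR1 also held 3, but that symbol stands for fatty acid reductase AT5G22500 and not for the phytochrome signalling gene.

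The gap with most distal regions, 6 in all, was the one between AT3G41762 and AT3G42050 on chromosome 3, which holds the annotated ribosomal RNA gene AT3G41768. Its regions were weak: 5 of the 6 had 2.17 to 2.66 in list 2 and 1.62 to 1.99 in list 3, and they took the last 5 ranks, 443 to 447. At 14198884 to 14199122 and at 14200941 to 14201179 the peaks had the same length of 239 bp and the same counts of 376 tags in list 2 and 282 in list 3. These are 94 times the largest number of duplicates that the headers allow per position, 4 in list 2 and 3 in list 3. The tag ratio of lists 2 and 3 was 1.32 to 1.33 for all 5, against a median of 1.83 (quartiles 1.37 and 2.47) for the other 359 distal regions of both lists. Ribosomal RNA genes stand in repeated copies, and the part of copy number in these calls was not tested.

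Other annotated genes, which the definition of distal did not use, lay near many of the regions. Of the distal regions, 71 (15.9%, 95% Wilson interval 12.8 to 19.6) fell inside such a gene, against 220 of the other consensus regions (5.00%, 4.4 to 5.69). The other consensus regions lie in or close to protein-coding genes, so the shares are not on equal terms. Pseudogenes held 40 distal positions (8.95%) and long non-coding RNA genes 24 (5.37%), against 28 (0.637%) and 164 (3.73%) of the others. Of the 145 distal regions of all 3 lists, 1 lay inside a pseudogene (0.690%), against 39 of the 302 held by 2 lists (12.9%). The pseudogene positions were thus nearly all in regions of 2 lists. By the nearest other gene only, a pseudogene held 23 of 61 distal positions in gene-poor bins and 15 of 386 in gene-rich bins. Of the 61 regions in gene-poor bins, 6 were held by all 3 lists. Bin class and the number of lists were not separated here. Without replicate 1 the share of distal regions with another annotated gene within 2000 bp was 37.6%, against 42.5% with all lists.

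The strongest distal regions within 500 bp of a non-coding RNA gene were those beside RAP2.4 and HAT3, given above. Next came a region inside AT4G09485, between AT4G37250 and MYB73, at chromosome 4, 17534803 to 17535692 (6.46, 17.19 and 12.8), and one 413 bp from AT1G05133, beside GAI. The region between EXPA4 and RTFL8 lay 15 bp from AT2G09070. These 5 RNA genes are long non-coding or of no named class, and the files hold no measure of their expression.

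MicroRNA genes lay within 2000 bp of 7 distal regions (1.57%), against 36 of the other consensus regions (0.819%). All 7 distal regions were held by lists 2 and 3 only. The strongest lay 176 bp from MIR164b, whose product targets NAC factors, at chromosome 5, 286776 to 287964 (7.78 and 4.72 in lists 2 and 3). Its summits in the 2 lists lay 637 bp apart. MIR866 had a region 1315 bp away (7 and 3.07). Beside MIR166a, whose product targets class III homeodomain-leucine zipper genes, a region stood at 256 bp, on chromosome 2, 19175614 to 19176316 (3.96 and 4.54).

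Near the other microRNA genes the values were low, as they were beside MIR166a. MIR406 had a region 464 bp away (4 and 4.03), MIR396b, whose product targets growth-regulating factor genes, 1 at 603 bp (4.17 and 3.7), and MIR156c, whose product targets SPL genes, 1 at 543 bp (3.63 and 3.64). MIR5642a lay 1855 bp from a region of the ribosomal RNA gap. Beyond this window stood MIR172a, described above at 4475 bp.

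Genes known from light and hormone pathways were among those next to distal regions, and are counted here without a test. A gene flanks a distal region where it is the nearest protein-coding gene on either side. Of 173 listed genes, 30 (17.3%) did so, against 713 of 27444 protein-coding genes (2.60%). Among the 5196 genes beside a gap over 4000 bp the share was 13.7%, and 30 of the 78 listed genes beside such gaps (38.5%) flanked a distal region. Among members beside such gaps, 3 of 4 ethylene genes (75%), 5 of 8 HD-ZIP II genes (62.5%), 5 of 9 gibberellin genes (55.6%), 5 of 11 brassinosteroid and growth genes (45.5%) and 7 of 23 auxin genes (30.4%) did so. Distal regions of all 3 lists were flanked by 16 listed genes, and by 260 of all protein-coding genes (0.947%). The lists were written with results of these data known and hold selected genes. They are no independent sample, and 78 of 173 members stand beside a gap over 4000 bp, against 5196 of 27444 protein-coding genes. In 23 of the 40 pairs of a listed gene and a distal region, the gene on the other side was nearer. For 15 of the 30 genes this held at each of their regions, namely HAT1, HAT3, HAT14, IAA14, AUX1, GH3.3, BR6OX2, BIN2, BAS1, RGA, GAI, ACS8, HLS1, GLK1 and GLK2. Without replicates 1, 2 and 3 the number of listed genes was 27, 18 and 17, and that of all flanking genes 591, 309 and 353.

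**Figure D5:**
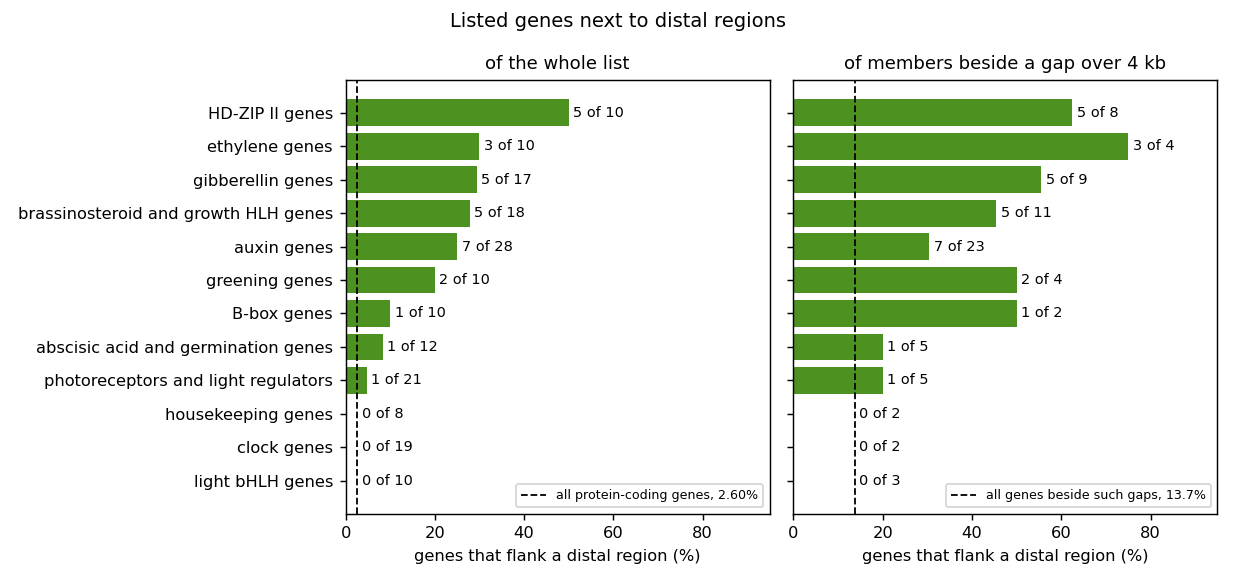
Share of each gene list that flanks a distal region, over the whole list (left) and over its members beside a gap over 4 kb (right), with the number of genes at the end of each bar; dashed lines mark all protein-coding genes (2.60%) and all those beside such gaps (13.7%). The HD-ZIP II list stands highest over whole lists (5 of 10) and the ethylene list among members beside wide gaps (3 of 4), while the lists of clock, light bHLH and housekeeping genes have none.

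Of the 10 HD-ZIP II genes, 5 flanked distal regions: ATHB2, HAT1, HAT3, HAT22 and HAT14. Beside HAT1, 7829 bp away, stood a region at chromosome 4, 9731094 to 9732114, with 6.62, 24.01 and 12.46, though AT4G17440 was nearer (2323 bp). A second region of HAT1, 1309 bp away, had 5.93, 27.55 and 12.59 and so was of similar strength. HAT22 had distal regions at 3644 bp (5 and 7.06 in lists 2 and 3) and 2347 bp (3.76 and 4.03), and HAT14 had 1 at 3857 bp (3.35, 7.15 and 4.2), which was nearer to PA2 (2959 bp). Each of the 5 genes had a near region as well, inside it or within 2000 bp.

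Of the 17 gibberellin genes, 5 flanked distal regions. Among the DELLA repressors of gibberellin response, GAI had a region at chromosome 1, 5143937 to 5147427, 2737 bp away, with 4.62, 19.83 and 12.56. It had the highest tag count of list 1 among distal regions (706), but was 3491 bp long, against a median of 724 bp for distal regions. This region is distal by the mean of its summits, and both its edges lay within 2000 bp of a gene. RGA (RGA1 in the gene table) had regions at 3748 bp (5.4 and 5.07 in lists 2 and 3) and 4372 bp (11.9 and 6.14), and RGL1 at 4110 bp (5.59 and 5.11). GA3OX1, which makes active gibberellin, had 1 at 3372 bp (3.51, 11.28 and 4.2). GA2OX2 had 3 distal regions, of which the nearest, at 2169 bp, was weak (3.72 and 4.54 in lists 2 and 3). Nearer than 2000 bp, RGL1, GA3OX1 and GA2OX2 had no consensus region.

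Of the 18 brassinosteroid and growth helix-loop-helix genes, 5 flanked distal regions. DWF4 had, beside the region at rank 10, another at 2145 bp (6.63 and 3.53 in lists 2 and 3). BRI1, the brassinosteroid receptor gene, had a region at 2899 bp with 3.5, 21.31 and 8.58. BAS1, for a brassinosteroid-inactivating enzyme, had 1 at 6087 bp (3.4, 14.6 and 5.18), and BR6OX2, for the last steps of synthesis, 1 at 8355 bp (4.37, 5.45 and 6.72). BIN2, for a kinase that inhibits the pathway, had 1 at 2679 bp (8.29 and 4.66 in lists 2 and 3). Of these 5 genes, BR6OX2 alone lacked a near consensus region.

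Of the 28 auxin genes, 7 flanked distal regions, at 7 regions, 4 of which were held by lists 2 and 3 only. GH3.5 (WES1 in the gene table), for an auxin-conjugating enzyme, had regions on both sides, at 2347 bp (5.67, 13.57 and 4.59) and 2632 bp (3.86, 10.95 and 9.4). ARF19, an auxin response factor gene, had 1 at 3804 bp (13.04 and 5.04 in lists 2 and 3). GH3.3 had 1 at 5574 bp (8.36 and 2.86), and the influx carrier gene AUX1 had 1 at 11168 bp (4.06 and 4.02). IAA1 and IAA14, neighbouring genes of auxin-response repressors, shared a region 2868 and 7864 bp away with 2.51 and 3.53 in lists 1 and 3.

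In the ethylene list 3 of 10 genes flanked distal regions. ACS8, for an enzyme of ethylene synthesis, had a region at chromosome 4, 17748347 to 17749233, 3344 bp away, with 6.24, 20 and 9.32. A region nearer to it, at 993 bp, had 6.33, 19.7 and 13.07. ACS5 had a distal region at 2530 bp (5.45 and 3.19 in lists 2 and 3) and the apical hook gene HLS1 had 1 at 6236 bp (2.99, 5.58 and 4.03).

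The remaining lists had 1 or 2 flanking genes or none. CRY1, the blue-light receptor gene, had regions at 5751 bp (4.42, 14.5 and 6.1) and 5051 bp (3.1, 6.52 and 3.7), with AT4G08910 nearer to the first. BBX21, for a B-box factor that promotes light responses, had 1 at 2002 bp (3.36, 9.2 and 7.67). NCED9, of abscisic acid synthesis, had 1 at 2476 bp (7.78 and 3.21 in lists 2 and 3). GLK1 (GPRI1 in the gene table) and GLK2, for regulators of chloroplast development, had regions at 2247 bp (5.07 and 4.51) and 5115 bp (8.56 and 3.36). None of the 10 light basic helix-loop-helix genes, 19 clock genes or 8 housekeeping genes flanked a distal region, although 3, 2 and 2 of them stood beside a gap over 4000 bp.

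Of the 713 genes that flanked a distal region, 279 (39.1%) also had a near one, inside them or within 2000 bp, as did 6536 (23.8%) of all protein-coding genes. Among the 30 listed genes 22 had both. For 9 of these 22 the strongest distal region had a higher mean percentile than the strongest near one, as at ATHB2, HAT3 and DWF4. The other 8 listed genes, IAA1, BR6OX2, RGL1, GA3OX1, GA2OX2, NCED9, GLK1 and GLK2, were next to consensus regions only beyond 2000 bp. Which gene, if any, a region acts on was not measured, and the gene table was used without strand, so distances do not tell upstream from downstream.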

How the data were processed

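The 3 deposited peak lists were made with MACS 1.4.1, 1 per pair of a PIF1 and a wild-type library, with no pooling of pairs and a p cutoff of 1e-05, per the file headers. The submitters' processing notes also name CASAVA 1.8.0, Bowtie 0.12.7 and the build TAIR10. Per the file headers, 13%, 70% and 66% of the tags in PIF1 libraries 1, 2 and 3 were redundant. The deposited columns are a tag count per peak (unscaled), a score (10 times the negative log10 of p), a fold enrichment (a ratio to the local wild-type background scaled for library size) and a false discovery rate in percent. Depth outside peaks was not analysed here.

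Regions were built with pandas 2.3.3 in Python 3.11.15, and intervals with scipy 1.17.1. Where a list had several peaks in a region, the one with the highest fold was used. Gene names, neighbours and distances came from a table of assembly TAIR10.1, whose gene coordinates were used but are not printed here. Every distance, and so the choice of members, assumes that its gene positions match the TAIR10 positions of the peaks, which was not tested. The table gave 27444 protein-coding and 10455 other nuclear genes. All 173 listed genes matched by locus code. A 1 Mb bin was called gene-poor below 100 protein-coding genes. Counts of consensus regions, distal regions and regions of all 3 lists were checked on simulated peaks. The summits of a simulated site coincided, so the averaging of summits was not tested. Distances were checked at random positions against the gene table. Wilson intervals (95%) cover counting error only. Regions and tags are not replicates, the 3 libraries may differ partly for technical reasons, and no test was made. The planned motif counts were not analysed here.

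The members, lists and comparisons were chosen with earlier results of these data known. Named were the 15 strongest distal regions of 3 lists and 5 of 2 lists, the 5 farthest, 3 on each side of the limit, every listed gene that flanked a region (except 1, which is counted but not reported here), the 5 strongest near a non-coding gene other than a pseudogene, and each microRNA gene within 2000 bp. Gaps with several regions, the region at rank 52, the HD-ZIP genes beside the 15 strongest regions and the ribosomal RNA gap were singled out after their values were seen.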

Additional observations from a re-analysis of the deposited data

How the results depend on the processing

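Across 13 alternatives, 65 of 117 values stayed within the interval, the spread or 1.5 times of the value reported, and 52 moved. With a distance limit of 1500 bp there were 677 distal regions (14% of consensus regions), 10.2% in gene-poor bins, with a difference in median percentile of 7.96 (distal minus other, 3.02 as reported). With 3000 bp there were 209 (4.31%), 25.4% in gene-poor bins, 50.2% near another annotated gene and 25.2 per Mb in gene-rich bins, flanked by 320 genes, 13 listed ones and 2 of the HD-ZIP II list. With all 3 lists needed there were 145 (10.4%), with a difference of 5.11, 14.1 per Mb, 4.14% in gene-poor bins, 35.9% near another gene, and 260 flanking genes (16 listed). Peaks of at least 5-fold gave 149 (10.1%), 14.5 per Mb, 4.03%, 34.2%, 266 and 16 in the same order, without the difference. Peaks with a score of at least 100 gave 204, 43.6% of them in all 3 lists, 19.5 per Mb, 5.88%, 35.8% and 362. Measured from the nearest edge, 6.79% of consensus regions were distal and 17.3% of these lay in gene-poor bins, and with a limit of 150 genes per bin 18.8% did. Without the ribosomal RNA gap, chosen after the data were seen, the difference was 5.04.

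Leaving out 1 replicate gave 172 to 364 distal regions (8.81% to 11.1% of consensus regions), 15.5 to 34.3 per Mb, a difference of 5.52 to 6.11, 7.42% to 12.7% in gene-poor bins, 37.6% to 42.9% near another gene, 309 to 591 flanking genes, 17 to 27 listed ones and 4 or 5 of the HD-ZIP II list. These changes follow in part from construction, since fewer lists or peaks give fewer shared regions. The listed-gene alternatives were also added after the data were seen. The share held by all 3 lists has no value where a list is left out or all 3 are needed. No paired analysis was possible because each deposited list already sets 1 PIF1 library against 1 wild-type library. Depth was lowest for the libraries of lists 3 and 2 (5721184 and 5825479 filtered tags), which limits how firmly weak regions are placed.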
